A study of Mus musculus with 8 samples.

Results

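Plasminogen activation dissolves fibrin clots and loosens the matrix through which cells move, and coagulation starts when blood meets tissue factor. The 9 genes described here cover both: Plau, Plaur, Plat, Serpine2 and Serpinb2 belong to plasminogen activation, and F3, Tfpi, Thbd and Procr to the start of coagulation and its control. They were taken by gene symbol from a list that was chosen with earlier results of these data known. The probe annotation used here named 1 probe each for 8 of the 9, among 19938 genes tested, and Serpine2 was not analysed here.

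Transcripts of mouse hearts were read on Affymetrix gene arrays. There were 4 groups of 2 arrays: wild-type (WT) mice after a sham operation, MAFbx knockout (KO) mice after a sham operation, and WT and KO mice at day 1 of a myocardial infarction (MI) made by tying off the left coronary artery. MAFbx is a muscle ubiquitin ligase encoded by Fbxo32. The labels give no strain, age or sex, no time after the sham operation and no account of which part of the gene was removed, and nothing in them says that the pair of arrays in a group stands for 2 animals. The p-values therefore rest on a spread between samples that may be technical.

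Fbxo32 read between 8.21 and 8.79 on the log2 scale in the 4 WT arrays and between 4.68 and 5.46 in the 4 KO arrays. Array medians over all probes lay between 5 and 5.25, and precision is limited by having 2 arrays in each group. The cardiomyocyte genes Myh6 and Tnnt2 read at or above the 99.9th percentile of genes in every group. MI and sham arrays separated on the first principal component (73.9% of the variance). On the second (8.56%), KO sham replicate 1 scored -21.22 against 15.29 for its partner, and WT MI replicate 2 scored -20.2 against 0.63. They are called the 2 outlying arrays below.

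As background, urokinase (Plau) is a secreted protease that converts plasminogen into plasmin, and it works bound to its cell surface receptor (Plaur), which neutrophils, monocytes and migrating cells carry. Tissue plasminogen activator (Plat) makes plasmin on fibrin and is released by endothelium. Serpins such as those encoded by Serpine2 and Serpinb2 block these proteases. Tissue factor (F3), which heart muscle and cells around vessels carry, starts clotting by binding factor VII, and tissue factor pathway inhibitor (Tfpi) shuts this step down. Thrombomodulin (Thbd) and the endothelial protein C receptor (Procr) turn thrombin towards activating protein C, an anticoagulant.

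RefSeq promoter sequences (build GRCm38.p6) were at hand for 6 of the 9 genes, as 8 windows of 250 bases before a transcript start. Shown here are those of Plaur, Serpinb2 and Procr, whose transcripts rose after MI, and of F3, which was lower. Capitals mark matches, on either strand, to AP-1 (TGANTCA, N being any base), Sp1 (GGGCGG), Egr1 (GCGNGGGCG) and TATA box (TATAAA) motifs. The first of the 2 Serpinb2 windows, which overlap each other, is printed.
Plaur, chr7:24462233-24462482, plus strand: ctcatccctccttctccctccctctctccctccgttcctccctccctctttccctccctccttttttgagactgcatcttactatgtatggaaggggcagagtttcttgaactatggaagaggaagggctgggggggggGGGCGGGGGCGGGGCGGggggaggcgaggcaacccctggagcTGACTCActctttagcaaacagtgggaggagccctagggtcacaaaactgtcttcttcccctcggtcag
Serpinb2, chr1:107511173-107511422, plus strand: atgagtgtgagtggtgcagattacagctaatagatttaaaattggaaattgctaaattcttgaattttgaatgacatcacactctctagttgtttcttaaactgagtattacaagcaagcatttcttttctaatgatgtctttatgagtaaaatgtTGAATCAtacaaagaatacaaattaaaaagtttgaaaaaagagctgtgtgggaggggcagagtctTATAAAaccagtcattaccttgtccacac
Procr, chr2:155750967-155751216, plus strand: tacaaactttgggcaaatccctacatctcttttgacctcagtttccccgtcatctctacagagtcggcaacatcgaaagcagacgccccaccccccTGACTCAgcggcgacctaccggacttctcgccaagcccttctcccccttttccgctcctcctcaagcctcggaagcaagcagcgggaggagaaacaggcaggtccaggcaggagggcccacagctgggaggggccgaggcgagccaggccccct
F3, chr3:121723287-121723536, plus strand: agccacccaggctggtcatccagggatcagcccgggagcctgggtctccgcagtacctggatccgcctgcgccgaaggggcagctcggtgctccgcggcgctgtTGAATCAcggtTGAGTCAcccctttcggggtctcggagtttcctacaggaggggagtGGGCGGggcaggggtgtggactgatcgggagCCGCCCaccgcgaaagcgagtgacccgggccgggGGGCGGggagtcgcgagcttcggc

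An AP-1 match lay in each of these windows, whereas 6.75% of all 32851 RefSeq windows of this length held one. Plaur had TGACTCA 69 bases before the start, counted to the first base of the match, and Procr had TGACTCA at 154 bases. Serpinb2 had TGAATCA at 94 bases and a TATA box at 29 bases. F3 held a pair of AP-1 matches, TGAATCA at 146 bases and TGAGTCA at 135 bases. Neither Tfpi window nor the Serpine2 window held an AP-1 match. Sp1 matches stood in the Plaur, F3, Tfpi and Serpine2 windows (32.7% of all windows). The Plaur and Serpine2 windows each also held an Egr1 match (4.7% of all windows), which overlapped some of their Sp1 matches. A TATA box was also found in 1 of the 2 Tfpi windows (12.4% of all windows). Matches to CRE (TGACGTCA, 1.55% of all windows), to the hypoxia response cores ACGTG (16.6%) and GCGTG (28.2%) and to the NF-kB motif (3.9%) were searched as well, and none lay in a window of these genes. A match describes letters in a window and not a bound site. Plau, Plat and Thbd have no sequence shown.

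The first question was what infarction did to these genes. In WT hearts 6 of the 8 measured genes rose (Plaur, Serpinb2, Procr, Plau, Thbd and Plat), 1 fell (F3) and Tfpi did not pass the test, which was limma at an adjusted p under 0.05. Among all genes tested 28.1% were called: 12.3% rose and 15.8% fell. In KO hearts the same 6 genes rose and none fell, where 20.8% of all genes were called: 10.5% rose and 10.3% fell. Plaur, Serpinb2, Procr, Plau and Thbd rose at least 2-fold in both, as 3.88% of all genes did in WT and 3.39% in KO. The median log2 fold change of the 8 genes was 1.40 in WT and 1.26 in KO, against 0.04 and 0.01 over all genes. Both WT MI arrays lay above both WT sham arrays for the 6 genes that rose (35% of all genes) and below them for F3 and Tfpi (31.6%). In KO both MI arrays lay above for the same 6 (28.1%) and below for F3 (27.5%). The 6 rises were shared by both genotypes, as were those of 8% of all genes. The 2 comparisons have no array in common, but 1 fit of all 8 arrays gave the spread used for both. Their calls are therefore not independent.

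**Figure D1:**
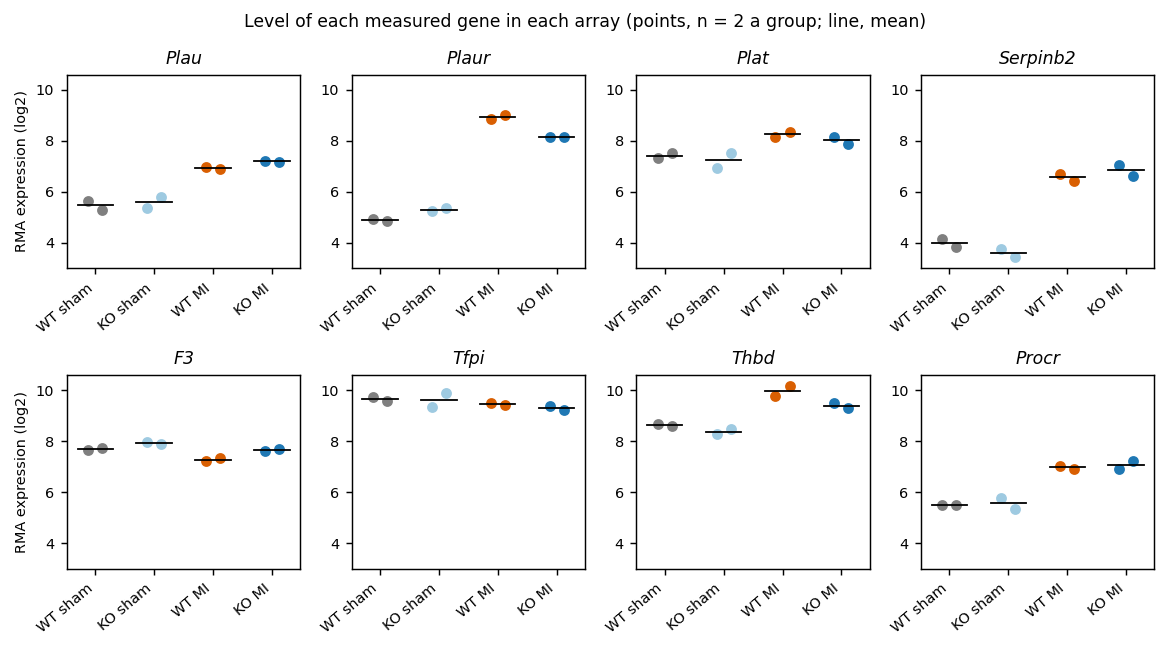
RMA expression (log2, vertical axis) of the 8 measured genes in each of the 8 arrays, by group, with points for arrays (n = 2 a group) and a line for the group mean. Plaur and Serpinb2 stand more than 2 log2 units higher in every MI array than in every sham array, while Tfpi and F3 move little.

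Urokinase itself rose in both genotypes. Plau levels (log2) were 5.64 and 5.30 in WT sham hearts, 5.36 and 5.81 in KO sham hearts, 6.99 and 6.88 in WT MI hearts and 7.20 and 7.19 in KO MI hearts. All 4 MI arrays lay above all 4 sham arrays, and the sham groups overlapped. Plau rose by 1.46 log2 units in WT (2.75-fold, SE 0.17, limma adjusted p = 0.00023) and by 1.61 in KO (3.05-fold, SE 0.17, adjusted p = 0.00022). By group mean the order was WT sham, then KO sham, then WT MI and highest KO MI, and the sham groups did not differ beyond their spread.

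The urokinase receptor gave the largest change of the 8 genes in WT hearts. Plaur levels (log2) were 4.95 and 4.86 in WT sham hearts, 5.24 and 5.36 in KO sham hearts, 8.84 and 8.99 in WT MI hearts and 8.13 and 8.14 in KO MI hearts. No group overlapped another: WT sham was lowest, followed by KO sham, KO MI and WT MI. The rise was 4.01 log2 units in WT (16.1-fold, SE 0.12, limma adjusted p = 1.2e-07) and 2.84 in KO (7.14-fold, SE 0.12, adjusted p = 1.48e-06). The KO mean was above the WT mean in sham hearts and below it in infarcts, and the tests of these differences are given further on. Both KO sham arrays lay above both WT sham arrays in 16.6% of all genes. Both KO MI arrays lay below both WT MI arrays in 20.2%. How many of all genes had every group apart was not counted.

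Tissue plasminogen activator rose less. Plat levels (log2) were 7.31 and 7.52 in WT sham hearts, 6.94 and 7.53 in KO sham hearts, 8.15 and 8.35 in WT MI hearts and 8.17 and 7.88 in KO MI hearts. Its lowest MI array (7.88) lay above its highest sham array (7.53), and KO and WT overlapped within each condition. The rise was 0.84 log2 units in WT (1.79-fold, SE 0.20, limma adjusted p = 0.0111) and 0.79 in KO (1.73-fold, SE 0.20, adjusted p = 0.0195). In WT the call was lost on leaving out WT sham replicate 1 (0.0813) or WT MI replicate 2 (0.0758), the alternatives spanning 0.00239 to 0.0813. In KO it did not pass without KO sham replicate 1 (adjusted p = 0.0906), KO MI replicate 1 (adjusted p = 0.141) or both KO sham replicate 1 and WT MI replicate 2 (adjusted p = 0.0786, range 0.00491 to 0.141).

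The inhibitor Serpinb2, a serpin that inhibits urokinase and is made by activated monocytes and macrophages, was the gene that rose most in KO hearts among the 8. Serpinb2 levels (log2) were 4.14 and 3.86 in WT sham hearts, 3.76 and 3.46 in KO sham hearts, 6.71 and 6.43 in WT MI hearts and 7.05 and 6.64 in KO MI hearts. The sham levels lay between the 19.2th and the 25.2th percentile of genes, in the lower part of the array's range, and detection was not tested. All MI arrays were above all sham arrays, and the MI groups overlapped. The rise was 2.57 log2 units in WT (5.94-fold, SE 0.19, limma adjusted p = 1.44e-05) and 3.24 in KO (9.42-fold, SE 0.19, adjusted p = 6.22e-06).

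Tissue factor, the trigger of clotting, was not among the rises. F3 levels (log2) were 7.65 and 7.74 in WT sham hearts, 7.97 and 7.88 in KO sham hearts, 7.22 and 7.33 in WT MI hearts and 7.60 and 7.69 in KO MI hearts. WT MI was the lowest group and KO sham the highest, and KO MI overlapped WT sham between them. F3 fell 1.34-fold in WT (a log2 change of -0.42 with SE 0.12, limma adjusted p = 0.0251) and did not pass in KO (log2 fold change -0.28, SE 0.12, adjusted p = 0.141). The call in WT was lost with cyclic loess scaling (adjusted p = 0.124), and on leaving out WT sham replicate 1 (0.0912) or 2 (0.169), or WT MI replicate 1 (0.102) or 2 (0.0518), the alternatives spanning 0.0155 to 0.169.

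Its inhibitor Tfpi, made by endothelium, did not pass in either genotype. Tfpi levels (log2) were 9.75 and 9.58 in WT sham hearts, 9.32 and 9.89 in KO sham hearts, 9.51 and 9.41 in WT MI hearts and 9.39 and 9.22 in KO MI hearts. The KO sham arrays spanned the widest range, so KO sham overlapped WT sham and both MI groups lay within or below it. The log2 fold change was -0.21 in WT (95% interval -0.62 to 0.20, limma adjusted p = 0.433) and -0.30 in KO (95% interval -0.70 to 0.11, adjusted p = 0.31). Without KO sham replicate 1, an outlying array, Tfpi fell in KO by 0.58 on the log2 scale (adjusted p = 0.0293, range over alternatives 0.0289 to 0.969). Averaged over genotypes, Tfpi did not pass (log2 fold change -0.25, adjusted p = 0.142) but fell without KO sham replicate 1 (0.0262), without the 2 outlying arrays (0.046) and with array weights (0.0383).

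Thbd and Procr, the genes of the protein C pathway among the 8, both rose. Proc and Pros1, also of this pathway, are given further on. For Thbd, the thrombin-binding receptor, log2 levels were 8.68 and 8.58 in WT sham hearts, 8.28 and 8.46 in KO sham hearts, 9.75 and 10.18 in WT MI hearts and 9.48 and 9.31 in KO MI hearts. All MI arrays were above all sham arrays, and the KO group was below the WT group in each condition. Shares of all genes for this genotype order are given further on. Thbd rose by 1.33 log2 units in WT (2.52-fold, SE 0.16, limma adjusted p = 0.00027) and by 1.03 in KO (2.04-fold, SE 0.16, adjusted p = 0.0019). For Procr, the receptor that presents protein C, log2 levels were 5.49 and 5.51 in WT sham hearts, 5.77 and 5.35 in KO sham hearts, 7.02 and 6.92 in WT MI hearts and 6.90 and 7.20 in KO MI hearts. KO and WT overlapped in each condition, with every MI array above every sham array. Procr rose by 1.47 log2 units in WT (2.77-fold, SE 0.17, limma adjusted p = 0.00018) and by 1.49 in KO (2.82-fold, SE 0.17, adjusted p = 0.00028).

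**Figure D2:**
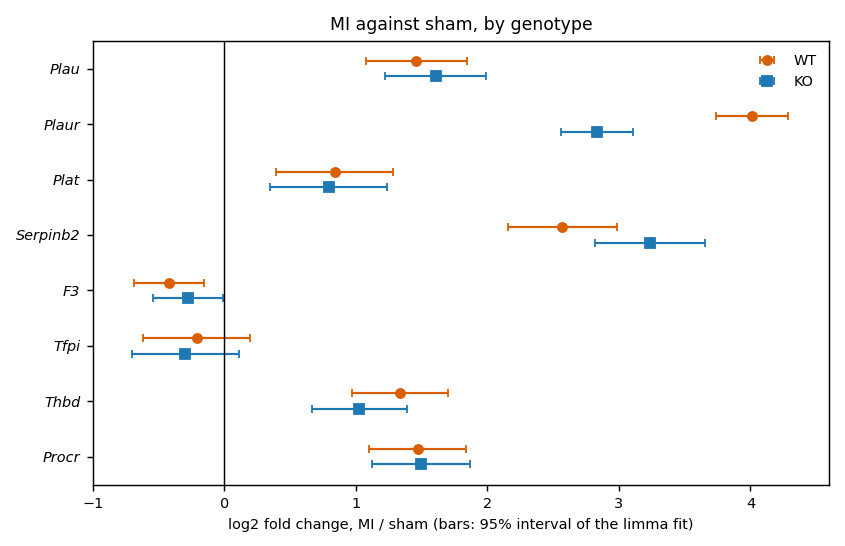
Log2 fold change of MI over sham (horizontal axis) for each of the 8 genes in WT (circles) and KO (squares), with 95% intervals of the limma fit as bars. Plaur stands at 4.01 in WT and 2.84 in KO with intervals that do not meet, while the pairs of Procr, Plat and Tfpi nearly coincide. The intervals are not adjusted for the number of genes, and the limma test of the Plaur difference did not pass (adjusted p = 0.161).

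The arrays were also compared without a model, 4 from MI against 4 from sham hearts. An exact two-sided permutation test gave p = 0.0286 for Plau, Plaur, Plat, Serpinb2, Thbd and Procr, the smallest p that 70 splits allow. It gave an exact p of 0.0571 for F3 and 0.143 for Tfpi. With 2 arrays against 2 the smallest exact p is 0.333. In the additive limma fit over both genotypes F3 passed as a fall of 0.35 on the log2 scale (SE 0.09, adjusted p = 0.00834), so that 6 of the 8 rose and 1 fell, beside 16.7% and 19% of all genes (35.7% in either direction). The 4 MI arrays lay above the 4 sham arrays for 6 of the 8 genes (17% of all genes) and below them for none (18.1%).

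The second question was whether the loss of MAFbx altered these genes. In sham hearts limma called none of the 8 genes, where 0.0301% of all genes (6 of 19938) were called. Leaving out 1 array gave 3 to 34 genes, the 34 without KO sham replicate 2. Plaur was the only member with an unadjusted p under 0.05 there, as were 1017 of all genes. It was 0.39 log2 units higher in KO (SE 0.12, 95% interval 0.12 to 0.67), with an adjusted p = 0.727. Both KO sham arrays lay above both WT sham arrays for Plaur and F3 (16.6% of all genes) and below them for Serpinb2 and Thbd (16.1%).

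After MI limma again called none of the 8, where 0.0702% of all genes (14) were called. At an unadjusted p under 0.05 there were 3 of the 8 genes and 2337 of all genes. Both KO MI arrays lay above both WT MI arrays for Plau and F3 (24.2% of all genes) and below them for Plaur, Tfpi and Thbd (20.2%). Plaur read lower in KO infarcts, at 8.14 ± 0.0037 (SD, n = 2) against 8.92 ± 0.11 (SD, n = 2), a 1.72-fold difference (log2 -0.78, SE 0.12, 95% interval -1.06 to -0.51, adjusted p = 0.0663). By p it ranked 27 of 19938. It passed with an intensity trend in the prior (adjusted p = 0.0363), with genes of low mean level removed (0.0495) and with cyclic loess (0.0376), and the adjusted p ranged from 0.0363 to 0.463 over the alternatives. Without WT MI replicate 2 it was 0.294, without KO MI replicate 1 it was 0.463 and without KO MI replicate 2 it was 0.292. Thbd was 1.49-fold lower in KO infarcts (log2 -0.57, SE 0.16, adjusted p = 0.238), and F3 was 1.30-fold higher (log2 0.37, SE 0.12, adjusted p = 0.287), both short of the threshold. For Procr the difference was 0.08 (95% interval -0.29 to 0.46) and for Plat -0.23 (95% interval -0.67 to 0.22).

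Averaged over both conditions, limma called none of the 8 genes for KO against WT (0.0552% of all genes), with 2 of the 8 and 1449 of all genes at an unadjusted p under 0.05. F3 was 0.30 log2 units higher in KO (SE 0.09, adjusted p = 0.476) and Thbd was lower, with a log2 difference of -0.42 (SE 0.12, adjusted p = 0.486). F3 was higher and Thbd lower in KO in both sham and MI hearts, with no overlap of the KO and WT arrays in either condition. Of all genes, 16.6% lay above in KO in sham hearts and 24.2% in MI hearts without overlap. Below in KO lay 16.1% in sham hearts and 20.2% in MI hearts. The share of all genes apart in both conditions was not counted.

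The third question was whether the responses to MI differed by genotype. The interaction test of limma called 0 of 19938 genes (0% called), with 2 of the 8 genes and 1637 of all genes at an unadjusted p under 0.05. The fitted rise of Plaur was smaller in KO, with a log2 difference of -1.18 (SE 0.17, 95% interval -1.56 to -0.79), which by p ranked 7 of 19938 and had an adjusted p = 0.161 (range over alternatives 0.0688 to 0.811). Serpinb2 went the other way, with a rise larger in KO by 0.67 (SE 0.26, 95% interval 0.08 to 1.25, adjusted p = 0.585). For Serpinb2 the KO and WT means differed by -0.39 in sham hearts, where signal was low and detection was not tested. In MI hearts they differed by 0.28, with overlapping arrays. Plau (0.15, 95% interval -0.40 to 0.69), Procr (0.03, -0.50 to 0.55) and Thbd (-0.31, -0.82 to 0.20) had log2 differences whose 95% intervals include 0.

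**Figure D3:**
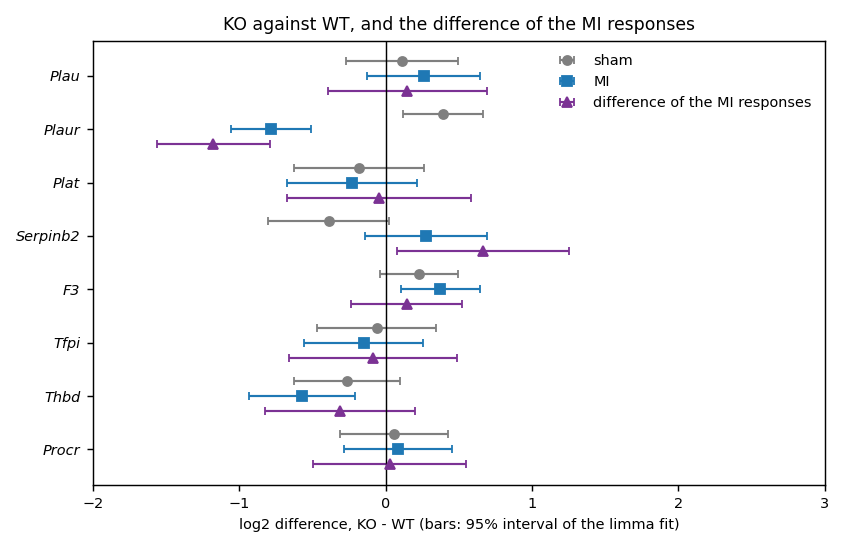
Log2 difference of KO minus WT (horizontal axis) for each of the 8 genes in sham hearts (circles) and in MI hearts (squares), and the difference of the MI responses (triangles), with 95% intervals of the limma fit. Plaur lies at 0.39 in sham and -0.78 in MI, and no value passed the adjusted threshold.

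Cell type markers were read in the same groups, and their counts stand beside 12.3% of all genes that rose and 15.8% that fell in WT, and 10.5% and 10.3% in KO. All 9 neutrophil markers rose in WT MI and 8 of 9 in KO MI. Their mean log2 level relative to WT sham was 4.24 and 5.04 in the WT MI arrays, 3.28 and 3.64 in the KO MI arrays and between -0.11 and 0.16 in the sham arrays, so both KO MI arrays lay below both WT MI arrays, as for Plaur. None of the 9 was called between KO and WT after MI (up to 3 over the alternatives). Monocyte and macrophage markers rose in 6 of 8 members in both genotypes, with means of 2.10 to 2.57 in WT MI and 2.09 to 2.20 in KO MI. The part of these cells in the Plaur and Serpinb2 values was not tested, and in bulk RNA more cells of a type and more RNA per cell cannot be told apart.

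Thbd, Procr and Tfpi are made by endothelium, and endothelial markers were measured beside them. Of 12, 3 rose and 2 fell in WT MI, and 0 rose and 3 fell in KO MI, that is 5 and 3 of 12 called where 28.1% and 20.8% of all genes were. The WT count was 3 without WT sham replicate 1 or WT MI replicate 2. Called markers went both ways in WT MI. Kdr, the receptor for vascular endothelial growth factor, was 2.44-fold lower (limma adjusted p = 0.00046) and Tek 1.91-fold lower (0.00444). Esam was 1.57-fold higher (adjusted p = 0.0028) and Nos3 1.51-fold higher (0.0114). The mean log2 difference of the 12 endothelial markers from WT sham stayed between -0.18 and 0.03 in all 8 arrays. Over the alternatives the number called in KO ran from 0 (without KO MI replicate 2) to 6 (without the 2 outlying arrays). Mesothelial markers, of cells that cover the heart, had 0 of 6 called in WT and 1 in KO (Krt19), with means between -0.38 and 0.12. Platelet markers rose in 3 of 5 in WT (Pf4, Ppbp and Itga2b) and 2 of 5 in KO (Pf4 and Ppbp), with means of 0.93 and 1.41 in WT MI and 0.47 and 0.72 in KO MI. The platelet count in KO was 1 without KO sham replicate 1 or either KO MI array. The mesothelial count was 1 in WT without WT MI replicate 1 or either array of KO sham, and 0 in KO without any 1 of the KO arrays.

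No marker of the resident muscle and stromal cells was called as a rise after MI. Fibroblast markers fell in 5 of 8 members in WT and 1 of 8 in KO (Dpt), smooth muscle and pericyte markers in 7 and 4 of 8, and cardiomyocyte markers in 4 and 2 of 8, beside 15.8% of all genes in WT and 10.3% in KO. Some of these counts moved with 1 array. The smooth muscle and pericyte count was 4 in WT without WT MI replicate 1, and 2 in KO without either KO sham array or KO MI replicate 2. The cardiomyocyte count was 2 in WT without either WT sham array, and 1 in KO without either WT sham array, KO sham replicate 2 or either KO MI array. The fibroblast count in KO was 2 without either KO sham array. Those of smooth muscle and pericytes had means of -1.12 and -0.98 in WT MI and of -0.98 and -1.01 in KO MI, and were already at -0.77 and -0.61 in KO sham. Cardiomyocyte marker means lay at -0.40 and -0.41 in WT MI and at -0.24 and -0.30 in KO MI. F3 was likewise lowest in WT MI, and the part of muscle content in its values was not tested.

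**Figure D4:**
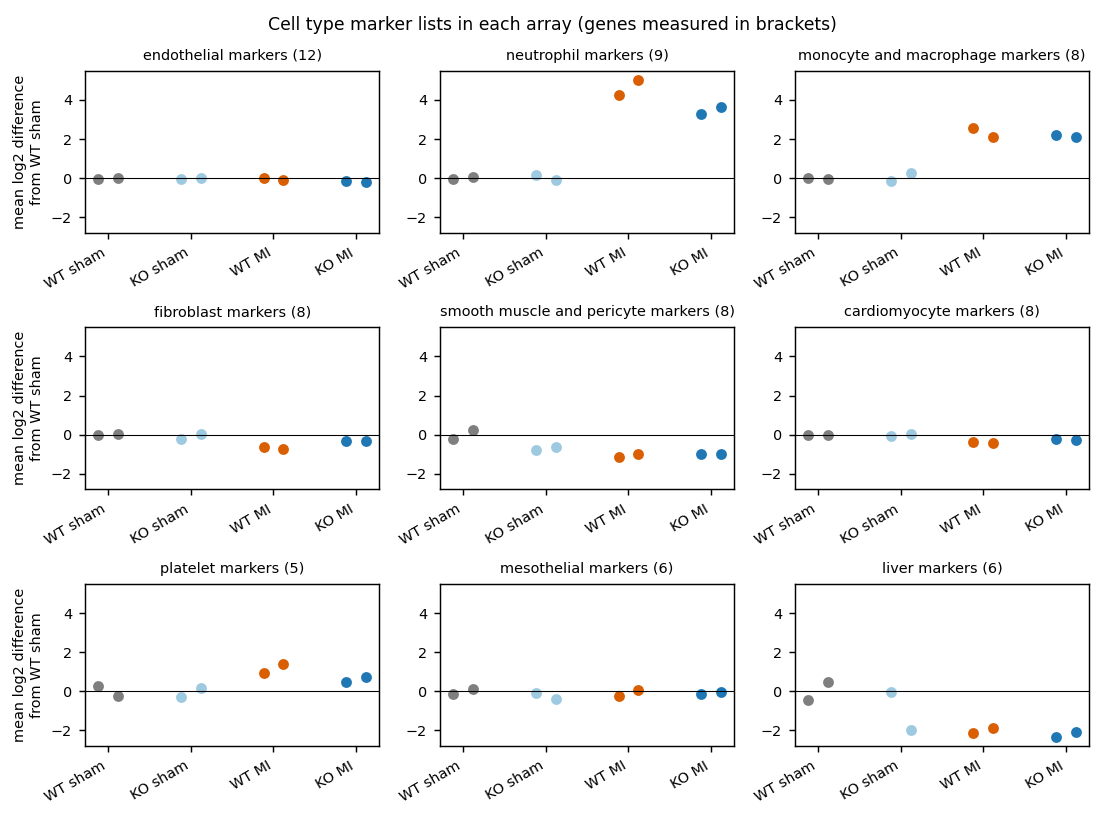
Mean log2 difference from the WT sham mean (vertical axis) of 9 lists of cell type markers in each array, by group, with the number of genes measured in brackets. Neutrophil markers lie between 3.28 and 5.04 in MI arrays, lower in KO, while the endothelial list stays near 0.

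Among other fibrinolysis genes, 2 of 8 measured rose and 1 fell in both genotypes, so 3 of 8 were called where 28.1% of all genes were in WT and 20.8% in KO. Anxa2 and S100a10 encode the subunits of a cell surface complex that binds plasminogen and tissue plasminogen activator. Anxa2 rose by 2.88 log2 units in WT (7.39-fold, SE 0.12, limma adjusted p = 8.7e-07) and 8.17-fold in KO, from 7.94 to 8.15 in the sham arrays to 10.87 to 11.08 in the MI arrays. S100a10 rose 2.74-fold in WT (adjusted p = 0.0001) and 2.79-fold in KO (adjusted p = 0.00015). Vtn, which encodes the matrix protein vitronectin, a ligand of the urokinase receptor, fell 2.67-fold in WT (adjusted p = 0.00013) and 1.87-fold in KO (adjusted p = 0.00257). The plasminogen receptor Plgrkt and the clearance receptor Lrp1 had adjusted p values of 0.0985 and 0.321 in WT. Lrp1 passed in WT without WT MI replicate 1 (adjusted p = 0.0464). Plg, which encodes plasminogen and is made in the liver, had a log2 fold change of -0.76 in WT (adjusted p = 0.093). It passed in WT with the compared groups alone (adjusted p = 0.0249), with cyclic loess (0.0432) and with crossed replicate numbers (0.0151). Leaving out either KO sham array also brought the call in WT, at the same log2 fold change. In KO the log2 fold change was -0.46 (adjusted p = 0.353). Averaged over genotypes Plg was called as a fall (-0.61, limma adjusted p = 0.0434).

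Of 15 clotting factors measured, 3 rose and 3 fell in WT MI, and 2 rose and 1 fell in KO MI. The 6 and 3 of 15 called stand beside 28.1% and 20.8% of all genes, and as a count they are not set apart from these shares. The WT count of 6 was 3 without WT sham replicate 2 or WT MI replicate 2. F10, which encodes the factor that tissue factor and factor VII activate, rose by 2.48 log2 units in WT (5.58-fold, SE 0.24, limma adjusted p = 7.49e-05) and 4.48-fold in KO (adjusted p = 0.00028). F13a1, the fibrin crosslinking factor that macrophages also make, rose 2.60-fold in WT (adjusted p = 0.00021) and 1.95-fold in KO (adjusted p = 0.00241). F5, a cofactor of thrombin generation, rose 1.56-fold in WT (adjusted p = 0.00447) and not in KO (adjusted p = 0.513), a difference that did not pass its own test (adjusted p = 0.556). F8, another cofactor, fell 1.55-fold in WT (adjusted p = 0.0116) and 1.61-fold in KO (adjusted p = 0.00993). The fall of F8 was lost in WT on leaving out WT sham replicate 2 (0.0893), WT MI replicate 2 (0.0852) or the 2 outlying arrays (0.0714), and in KO without KO MI replicate 2 (0.0954).

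The fibrinogen chains Fgb and Fgg, which the liver makes, fell in WT MI (Fgb 3.35-fold, limma adjusted p = 0.0414, Fgg 3.99-fold, adjusted p = 0.0162) and did not pass in KO (adjusted p = 0.0707 and 0.232). The difference of the MI responses did not pass for Fgb (limma adjusted p = 0.971) or Fgg (0.724). In KO both passed without KO sham replicate 2 (0.00445 and 0.00683), which brought the clotting factors called there from 3 to 7. Without WT sham replicate 2 neither passed in WT (adjusted p = 0.255 and 0.118), nor without WT MI replicate 1 (0.161 and 0.0689) or WT MI replicate 2 (0.0995 and 0.0713), and Fgb also did not pass without either KO MI array (0.0655), with a robust prior (0.0936) or with the replicate block (0.0587). F2, which encodes prothrombin, did not pass in WT (adjusted p = 0.167) but passed without the 2 outlying arrays (0.0144) and with cyclic loess (0.0416). Kng1, which encodes kininogen, did not pass in WT (0.176) but passed without either KO sham array (0.0247). Liver markers were lower in the same arrays. The mean of the 6 measured was -0.45 and 0.45 in WT sham, -0.05 and -1.97 in KO sham and between -2.33 and -1.90 in MI arrays, and 4 fell in WT and 1 in KO (Alb), beside 15.8% and 10.3% of all genes. Leaving out 1 array gave 1 to 6 liver markers called in WT, with 1 without WT sham replicate 2 or either WT MI array, and 2 without either KO MI array. In KO it gave 0 to 4, with 4 without KO sham replicate 2 and 0 without either KO MI array. Their part in the values of fibrinogen, Plg and Serpinc1 was not tested.

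Of 7 natural anticoagulants, 1 rose in WT MI and 2 rose in KO MI, and 0 fell in either. These counts stand beside 28.1% and 20.8% of all genes called. Tfpi2, an inhibitor related to Tfpi, rose by 1.57 log2 units in WT (2.97-fold, SE 0.18, limma adjusted p = 0.00023) and 3.09-fold in KO (adjusted p = 0.00032), while Tfpi did not. Pros1, the protein S cofactor of protein C, rose 1.60-fold in KO (adjusted p = 0.0321) and did not pass in WT (adjusted p = 0.245). The difference of these responses did not pass its own limma test (adjusted p = 0.744). The call of Pros1 was lost with the compared groups alone (adjusted p = 0.0608), without either WT sham array (0.0509), KO sham replicate 1 (0.149), KO MI replicate 1 (0.19) or KO MI replicate 2 (0.0739), and without the 2 outlying arrays (0.0929). Serpinc1, which encodes antithrombin, did not pass in WT (log2 fold change -0.73, limma adjusted p = 0.0894). It passed there with the compared groups alone (adjusted p = 0.0337), cyclic loess (0.0301), array weights (0.0465) and crossed replicate numbers (0.00664). Leaving out either KO sham array also brought the call, at the same log2 fold change, as did leaving out the 2 outlying arrays (log2 fold change -0.92). Proc, which encodes protein C and is made mainly in the liver, did not pass in either genotype (adjusted p = 0.361 and 0.654).

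Among 3 measured receptors that thrombin and related proteases cleave, F2rl2 rose 1.68-fold in WT (limma adjusted p = 0.0353) and F2rl3 1.56-fold in KO (adjusted p = 0.0305). That is 1 of 3 called in each genotype, where 28.1% of all genes were in WT and 20.8% in KO. The difference of the MI responses did not pass for F2rl2 (limma adjusted p = 0.652) or F2rl3 (0.677). The main thrombin receptor of many cells, F2r, did not pass in either genotype (adjusted p = 0.541 and 0.728). The call of F2rl2 was lost on leaving out WT sham replicate 1 (0.116) or 2 (0.133), WT MI replicate 2 (0.246) or the 2 outlying arrays (0.227). F2rl3 was lost with the compared groups alone (adjusted p = 0.0574), without KO sham replicate 1 (0.147), KO MI replicate 1 (0.058) or KO MI replicate 2 (0.205), and without the 2 outlying arrays (0.123). None of the genes of these 4 lists was called between KO and WT in sham or MI hearts, where 0.0301% and 0.0702% of all genes were.

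**Figure D5:**
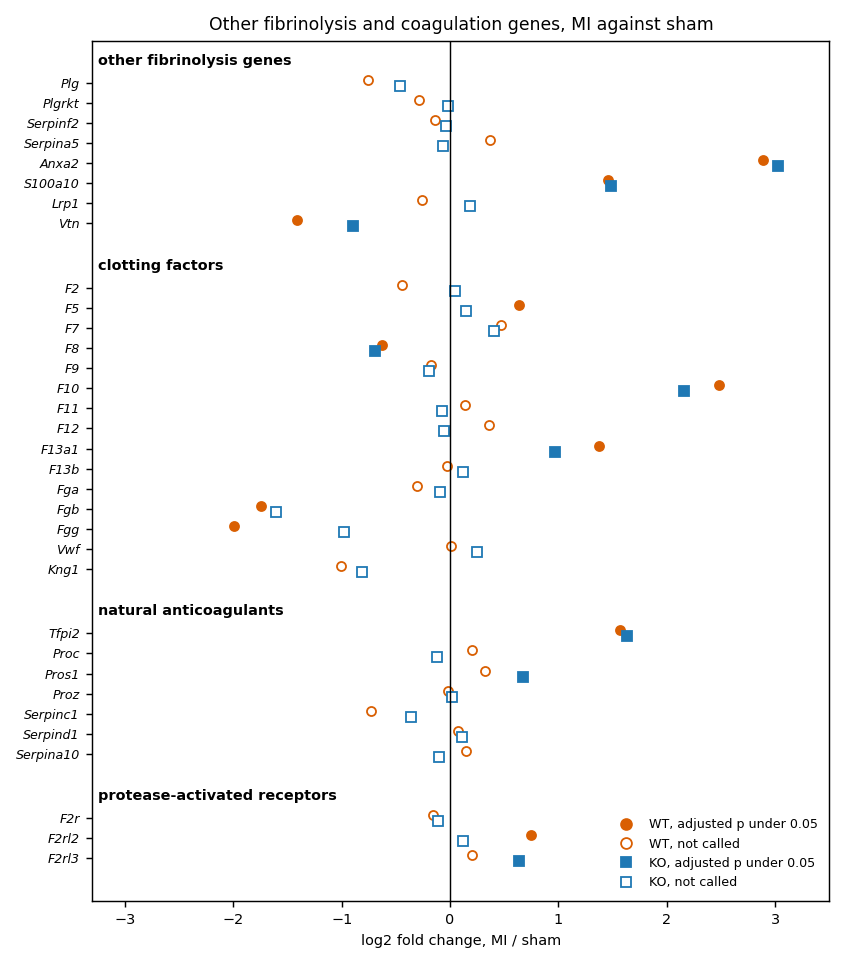
Log2 fold change of MI over sham (horizontal axis) of the other fibrinolysis and coagulation genes measured, in WT (circles) and KO (squares), filled where the limma adjusted p was under 0.05. Anxa2, F10, Tfpi2, S100a10 and F13a1 lie to the right in both genotypes, and Vtn and F8 to the left.

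The genes most like each changed member were sought by the root mean square difference of their log2 deviations from WT sham over the 8 arrays, clones and predicted genes left out. Plaur was followed most closely by Ptgs2, the inducible cyclooxygenase (0.16 log2 units), and Slc7a11, a cystine transporter (0.17). Ptgs2 rose by 3.92 in WT and 3.11 in KO, and Slc7a11 by 4.02 and 2.82, on the log2 scale. Serpinb2 lay nearest to the activin subunit Inhba (0.26) and the tubulin Tubb6 (0.27). Plau lay nearest to the signal peptidase subunit Spcs3 (0.12) and the nucleolar protein gene Npm1 (0.13). Thbd lay nearest to the kinases Map2k3 (0.11) and Pim1 (0.12), and Procr to Emp3 and the leukocyte myosin Myo1f (both 0.12). Among the 8 themselves the most alike pair was Plau and Procr (0.26), followed by Plat and Thbd (0.30) and by F3 and Tfpi (0.31), whereas Plaur and Serpinb2 lay 0.86 apart.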

How the data were processed

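Total RNA from mouse hearts was measured on 8 arrays, and groups came from the genotype and condition labels. The deposited log2 values were made by the authors with Affymetrix Expression Console and RMA, per the submitters' processing notes; the sources used here name no version, background setting or scan date. RMA as commonly run makes the arrays' distributions alike, which can hide a change common to most transcripts.

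The platform annotation paired 21789 of 35556 probes with 1 gene, 1621 with several and left 12146 unnamed. The probe with the highest mean over the arrays stood for a gene, which gave 19938 genes with no filter on low values; each of the 8 members has 1 probe. Differences were fitted with limma 3.58.1 in R 4.3.3 in 1 fit of 4 group means (4 residual degrees of freedom, 5.57 from the prior), two-sided, with Benjamini-Hochberg adjustment over all genes, called at an adjusted p under 0.05. Effects averaged over condition or genotype used additive terms (5 residual degrees of freedom). A fold is 2 to the power of the log2 difference. The fit was tested on simulated data, and Python 3.11.15 with matplotlib 3.10.9 made the figures.

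The members, lists and alternatives were chosen with earlier results of these data known. The text names all members, up to 4 called genes of each other list or those singled out after their values were seen, and the 2 genes nearest each member that changed at least 2-fold. Listed genes with no probe of their own here were not analysed, among them Serpine2, Cpb2, Eno1, Klkb1, F2rl1, Ly6c2, Gp1bb, Gp1ba and Serpina1a. Alternatives were array weights, an intensity trend or a robust form of the prior, dropping genes of low mean level, averaging a gene's probes, cyclic loess, centring on the array median, a fit of only the groups compared, a replicate block and leaving out each array. Crossed replicate numbers, leaving out both outlying arrays, and the alternatives for the other lists were chosen after seeing the data. Same-numbered arrays had deviations from their group means that correlated across genes between -0.187 and 0.156.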

Additional observations from a re-analysis of the deposited data

How the results depend on the processing

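Over 19 alternatives the 8 members gave 1040 recomputed values. Of these, 1022 kept their direction and side of the threshold, 10 lost a call (Plat and F3), 8 gained one (Tfpi and Plaur) and 0 reversed. Cyclic loess and median centring turned the sign of no member. The number of members called in KO against WT after MI went from 0 to 1 (Plaur) with the intensity trend, with low genes removed and with cyclic loess. Leaving out 1 array gave 5 to 7 called members for MI in WT, 5 to 6 for MI in KO and 7 to 8 for MI over both genotypes, and 0 for each comparison of KO with WT and for the difference of the responses. With the replicate block 7 members were called for MI in WT and 6 in KO, as without it, and the block changed no member's call. The labels do not say that a number marks a shared animal or day. With crossed KO sham numbers the counts were 7 and 6 too. Over all genes, the called count for MI in WT was 3457 without WT sham replicate 1 and 3462 without WT sham replicate 2 (5609 with all), and for MI in KO 2305 and 2246 without KO MI replicate 1 or 2 (4142 with all). For KO against WT after MI it ranged from 2 to 63 (14 with all). Low signal limits Serpinb2 in sham hearts.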
